A study of Mus musculus with 3 samples.

Results

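The 34 genes described here carry sterol and fatty acid synthesis, together with the factors that switch it on. They were chosen by symbol from a list, and all 34 were found among the 55536 annotated genes in the tables. They fell into 4 roles: 8 mevalonate steps, 11 steps from squalene to sterol, 6 regulators and sterol transfer proteins, and 9 genes of fatty acid synthesis.

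Cells make cholesterol from acetyl-CoA through mevalonate and squalene, and fatty acids from acetyl-CoA through malonyl-CoA. The SREBP transcription factors, encoded by Srebf1 and Srebf2, sit in the endoplasmic reticulum membrane with the sterol sensor SCAP. When membrane sterol is low, SCAP carries them to the Golgi, where proteases release the part that enters the nucleus, and the INSIG proteins hold the complex back when sterol is plentiful. In macrophages, which take up lipoproteins and dead cells, the same pathway balances lipid uptake against synthesis and supplies lipids for membranes.

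The RNA came from bone marrow-derived macrophages (BMDM, macrophages grown from marrow progenitors) of C57BL/6J mice, with no genetic change named in the labels. Total RNA of the cytosolic fraction was depleted of ribosomal RNA and sequenced. Lipid A, the portion of bacterial lipopolysaccharide sensed by TLR4, was the stimulus of the study at 100 ng/ml, and these cells were taken at 0 minutes. The group held 3 libraries, biological replicates 1, 2 and 3, and no other group was used, so members were compared with each other and between libraries. The libraries carry separate biosamples and the same donor label, and nothing in the labels says whether they came from separate cultures or animals. An SD here is thus the spread of these samples alone, and part or all of it may be technical.

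Expected counts (estimated reads per gene) ranged from 26318761 to 56290298 over genes per library, with replicate 2 in the middle. All 7 macrophage markers were detected, led by the lysozyme gene Lyz2 at 4792 TPM (a level scaled by transcript length and library size). Of the adipocyte markers, 0 of 5 reached 1 TPM, 4 stood at 0 in all libraries, and their summed level ranged from 0 to 0.01 TPM. Of the fibroblast markers, 0 of 5 reached 1 TPM, with a summed level from 0.05 to 0.24 TPM. Of the 5 neutrophil markers, only Ngp was detected, and the B cell, T cell and erythroid lists had 0 of 4 detected each. In bulk RNA, fewer cells of a type and less RNA per cell cannot be told apart.

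Of the 34 members, 33 reached 1 TPM in all 3 libraries by the main quantification, and 28 by the second, in kallisto's format, before any rescaling. Member levels ran lower in that format, so 1 TPM was a stricter limit there. For example, Scd2 had 15.8, 34.8 and 16.5 TPM in replicates 1, 2 and 3, against 39.6, 70.8 and 42.4 TPM by the main quantification. The exception by the main quantification was Elovl6, a fatty acid elongase, at 0.53, 0.67 and 0.54 TPM in replicates 1, 2 and 3, from 139 to 319 counts. By the main quantification, 1 TPM was reached by 17.0% of all genes and by 41.0% of the 22028 protein-coding genes. No such share is given for the kallisto format. The median member stood at 7.40 TPM and the median detected protein-coding gene at 7.19 TPM. The members' levels spanned 87.8-fold, from Elovl6 at 0.58 TPM to Scd2, a stearoyl-CoA desaturase, at 50.9 TPM. When the members were ordered by mean TPM, the library ranges of 31 of 33 neighbouring pairs overlapped. The 2 exceptions were Hmgcs1 above Insig1 and Hsd17b7 above Elovl6.

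**Figure D1:**
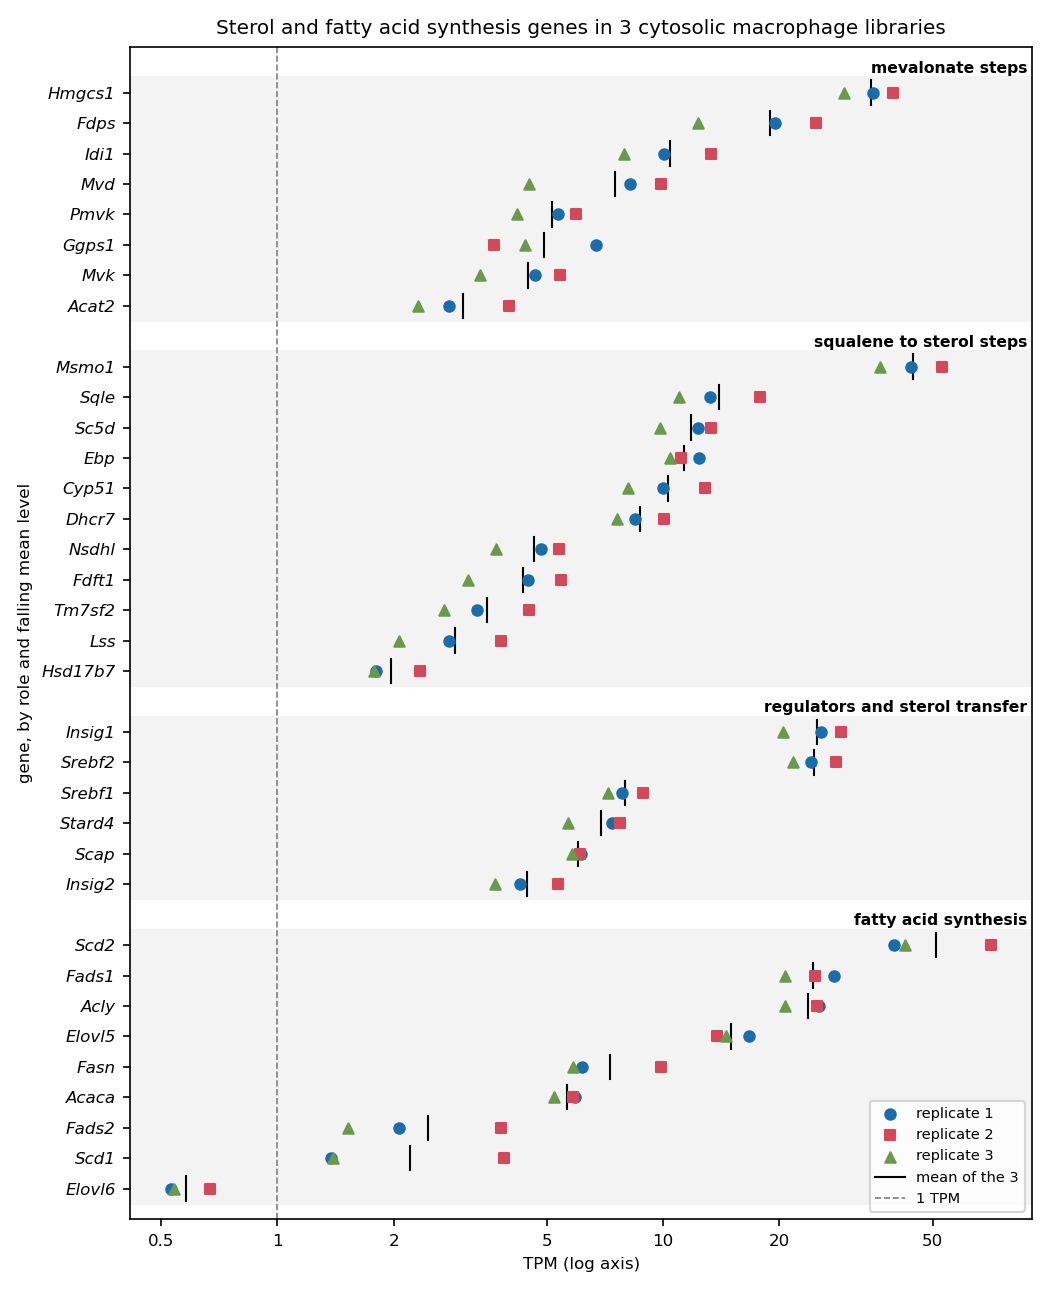
TPM (log axis) of each of the 34 genes in replicates 1, 2 and 3, grouped by role and ordered by mean level, with a black bar at the mean of the 3 libraries and a dashed line at 1 TPM. Scd2, Msmo1 and Hmgcs1 had the highest means, Elovl6 alone lies left of 1 TPM, and the red squares of replicate 2 lie to the right for most genes.

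The mevalonate steps build the isoprene units of sterols. Hmgcs1, which joins acetyl-CoA units into HMG-CoA (chromosome 13, 119690379 to 119708260 on mm10), led the list at 35.0, 39.5 and 29.5 TPM in replicates 1, 2 and 3. Fdps, which makes farnesyl diphosphate, followed at 19.5, 24.9 and 12.3 TPM. Idi1, the isomerase of the isoprene unit, stood at 10.1, 13.3 and 7.91 TPM. The median of the 8 genes was 6.33 TPM.

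The lower mevalonate genes were the decarboxylase, the kinases, the branch to protein prenylation and the thiolase that starts the route. Mvd, the mevalonate diphosphate decarboxylase, had 8.19, 9.86 and 4.50 TPM. The kinase genes Pmvk and Mvk had 5.33, 5.93 and 4.17 TPM, and 4.64, 5.41 and 3.35 TPM. Ggps1 makes the geranylgeranyl diphosphate that anchors small GTPases in membranes, and it differed from the other 7 genes in being lowest in replicate 2, at 6.71, 3.64 and 4.39 TPM. Acat2, the cytosolic acetoacetyl-CoA thiolase, was the lowest of the list at 2.78, 3.98 and 2.32 TPM.

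The start regions of Hmgcs1 and Mvk are shown because they hold the most matches to motifs known from SREBP target promoters. This is among the mevalonate genes with a start region available, which leaves out Fdps. Matches were sought on both strands to the SREBP motif TCACNCCAC, the E-box CACGTG, the NF-Y motif CCAAT and the SP1 motif GGGCGG. Both sequences are RefSeq's, on GRCm38.p6 (the same coordinates as mm10), plus strand, 5′ to 3′, with matches in capitals and exons left out. The Hmgcs1 region is chr13:119690101-119690350 and the Mvk region is chr5:114444061-114444268.
Hmgcs1: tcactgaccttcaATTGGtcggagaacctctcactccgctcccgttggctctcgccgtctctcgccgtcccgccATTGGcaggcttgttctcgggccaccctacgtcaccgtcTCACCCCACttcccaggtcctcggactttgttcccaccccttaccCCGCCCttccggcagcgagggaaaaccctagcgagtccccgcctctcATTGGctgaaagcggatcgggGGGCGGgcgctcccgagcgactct
Mvk: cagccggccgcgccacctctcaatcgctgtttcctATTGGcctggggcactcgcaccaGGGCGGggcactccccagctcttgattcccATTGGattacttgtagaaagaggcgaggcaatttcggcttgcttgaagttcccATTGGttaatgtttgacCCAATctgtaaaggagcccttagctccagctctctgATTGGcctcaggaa
The only SREBP motif among the 27 members with a window lies in the Hmgcs1 region. It runs from 137 to 129 bases before the start, between matches to the NF-Y motif and the SP1 motif. The Mvk region holds 5 NF-Y matches, all within 173 bases of the start. No base of the printed regions belongs to matches of 2 motifs.

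The steps from squalene to sterol close the rings and trim the methyl groups. Msmo1, the methylsterol oxidase (chromosome 8, 64718139 to 64733792), was the second highest member of all at 43.8, 53.0 and 36.6 TPM. Sqle, the squalene epoxidase often named as a rate-limiting step, had 13.2, 17.8 and 11.0 TPM. Sc5d, a sterol desaturase, had 12.3, 13.3 and 9.84 TPM. The median of the 11 genes was 8.70 TPM, and the medians of the 4 roles lay between 6.33 and 8.70 TPM.

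Ebp, the sterol isomerase, was the only gene of this list highest in replicate 1, at 12.4, 11.1 and 10.4 TPM. Cyp51, the lanosterol demethylase, had 9.97, 12.9 and 8.09 TPM, and Dhcr7, a reductase of the final step, had 8.47, 10.03 and 7.59 TPM. Nsdhl, a dehydrogenase of demethylation, had 4.82, 5.37 and 3.69 TPM. Fdft1, the squalene synthase at the branch point to sterols, had 4.45, 5.45 and 3.12 TPM. Ebp, Cyp51 and Dhcr7 lay above Nsdhl and Fdft1 in every library.

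Tm7sf2, a sterol reductase, had 3.30, 4.49 and 2.70 TPM. Lss, the lanosterol synthase that closes the rings, had 2.79, 3.80 and 2.07 TPM. Hsd17b7, the ketoreductase of demethylation, was the lowest of the list at 1.80, 2.34 and 1.78 TPM. In TPM all 3 were highest in replicate 2 and lowest in replicate 3, for Hsd17b7 by a narrow margin. In CPM (counts scaled to library size), Hsd17b7 was lowest in replicate 1, at 11.60, 18.70 and 12.85.

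The regulators set the activity of the whole module. Insig1, a retention protein whose own gene is a known SREBP target, stood at 25.7, 28.9 and 20.5 TPM, and Srebf2, the isoform most tied to sterol synthesis, at 24.2, 28.0 and 21.7 TPM. Srebf1, the isoform tied to fatty acid synthesis, stood at 7.83, 8.89 and 7.18 TPM. Stard4, a sterol transfer protein, had 7.37, 7.72 and 5.67 TPM. Scap, the sterol sensor, had 6.14, 6.07 and 5.82 TPM, and Insig2, the other retention protein, was the lowest of the list at 4.26, 5.35 and 3.66 TPM. The 6 genes had a median of 7.44 TPM.

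Start regions of Insig1 and Srebf1 are printed because Insig1 leads the regulators and Srebf1 has separate starts that its transcripts share unequally. They are again from RefSeq on GRCm38.p6, 5′ to 3′ on the gene's own strand, without exons, with matches to the 4 motifs in capitals. The Insig1 region is chr5:28071162-28071362 on the plus strand. RefSeq gives 3 starts of Srebf1. The middle start, close to that of the transcript Srebf1-201, has the region chr11:60220628-60220877, and the most downstream start, close to that of Srebf1-207, has chr11:60210472-60210721, both on the minus strand.
Insig1: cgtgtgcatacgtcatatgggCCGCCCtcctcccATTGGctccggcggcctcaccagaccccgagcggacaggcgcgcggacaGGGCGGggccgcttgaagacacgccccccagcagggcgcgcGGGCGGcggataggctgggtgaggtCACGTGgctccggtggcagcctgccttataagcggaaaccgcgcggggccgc
Srebf1 middle start: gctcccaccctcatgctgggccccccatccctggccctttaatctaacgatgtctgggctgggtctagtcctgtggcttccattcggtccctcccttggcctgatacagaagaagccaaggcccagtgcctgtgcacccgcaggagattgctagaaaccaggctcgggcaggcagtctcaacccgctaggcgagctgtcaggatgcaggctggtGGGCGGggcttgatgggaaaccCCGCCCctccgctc
Srebf1 downstream start: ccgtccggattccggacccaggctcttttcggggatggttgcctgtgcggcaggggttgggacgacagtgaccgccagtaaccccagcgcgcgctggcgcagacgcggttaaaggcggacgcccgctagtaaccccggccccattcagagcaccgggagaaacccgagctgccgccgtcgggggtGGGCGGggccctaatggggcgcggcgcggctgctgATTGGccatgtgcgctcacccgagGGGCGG
The Insig1 region holds an E-box from 101 to 96 bases before the start. The region of the middle Srebf1 start holds only SP1 matches, while that of the downstream start holds an NF-Y match 30 to 26 bases before it as well. The most upstream start, at 60222581, has an NF-Y match 166 to 162 bases before it and no SP1 match, and its region is not printed.

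The fatty acid genes spread most widely. Scd2 (chromosome 19, 44293674 to 44306864) had 39.6, 70.8 and 42.4 TPM and took 16.5%, 24.0% and 20.4% of all counts of the 34 members. Fads1, a desaturase of polyunsaturated fatty acids, had 27.8, 24.8 and 20.7 TPM, and Acly, which splits citrate to acetyl-CoA, had 25.4, 25.1 and 20.7 TPM. Elovl5, the elongase of polyunsaturated fatty acids, had 16.7, 13.8 and 14.6 TPM. These 4 genes made up the upper end of a list whose median was 7.29 TPM.

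Fasn, the fatty acid synthase, stood at 6.15, 9.87 and 5.84 TPM, and Acaca, the acetyl-CoA carboxylase that makes malonyl-CoA, at 5.90, 5.83 and 5.20 TPM. Fads2, the desaturase that acts before Fads1, had 2.06, 3.80 and 1.52 TPM. Scd1, the desaturase that dominates in liver and fat (chromosome 19, 44394455 to 44407879), had 1.38, 3.86 and 1.39 TPM. Fasn, Fads2 and Scd1 in replicate 2 lay above both other libraries, whereas the TPM of Acaca was highest in replicate 1 by a narrow margin. In CPM, Acaca was highest in replicate 2, at 57.2, 71.7 and 64.6. Protein-coding genes together held 26.2%, 22.0% and 21.7% of TPM in replicates 1, 2 and 3, so the order of libraries can differ between the scales.

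The start region of Elovl5 is shown because this gene varied least between the libraries in counts and holds motifs also found at genes that varied. It is chr9:77917115-77917363 on the plus strand (RefSeq, GRCm38.p6, 5′ to 3′, matches in capitals, exons left out).
Elovl5: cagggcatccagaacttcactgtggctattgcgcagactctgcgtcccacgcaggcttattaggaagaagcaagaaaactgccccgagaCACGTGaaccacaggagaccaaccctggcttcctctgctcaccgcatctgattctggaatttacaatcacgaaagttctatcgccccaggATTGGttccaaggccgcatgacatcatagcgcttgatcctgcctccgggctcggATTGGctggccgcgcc
It holds an E-box and 2 NF-Y matches, while the Insig1 region holds an E-box, 1 NF-Y match and 3 SP1 matches. The Elovl5 region holds 0 SP1 matches, and so does that of Fasn, which varied more.

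Related genes within a library were compared as ratios of TPM. Scd2 exceeded Scd1 28.7-fold, 18.3-fold and 30.5-fold in replicates 1, 2 and 3, a mean log2 ratio of 4.66 ± 0.40 (SD, n = 3). Elovl5 exceeded Elovl6 with a log2 ratio of 4.70 ± 0.31, and Fads1 exceeded Fads2 with 3.41 ± 0.61. In these 3 pairs the ratio was smallest in replicate 2, where the lower gene was highest.

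Regulator pairs were steadier in TPM. Insig1 over Insig2 had a log2 ratio of 2.50 ± 0.08 and Srebf2 over Srebf1 had 1.63 ± 0.03, a 3.09-fold excess. For Insig2 this rests partly on the retained-intron transcript Insig2-206, which held 0%, 27.8% and 0% of its TPM in replicates 1, 2 and 3. In CPM (counts scaled to library size) Insig1 had 109, 144 and 100, and Insig2 had 17.3, 19.0 and 18.2. On that scale the excess of Insig1 was largest in replicate 2. The direction was the same in 3 of 3 libraries for all 5 pairs, and the exact two-sided sign-flip permutation test gave p = 0.25 for each, or 0.25 after Benjamini-Hochberg adjustment over the 5. With 3 libraries that is the smallest p the test can give, so no pair could reach 0.05. The Insig1 to Insig2 and Srebf2 to Srebf1 ratios moved by more than their SD with the kallisto-format levels, to 2.00 and 1.32.

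**Figure D2:**
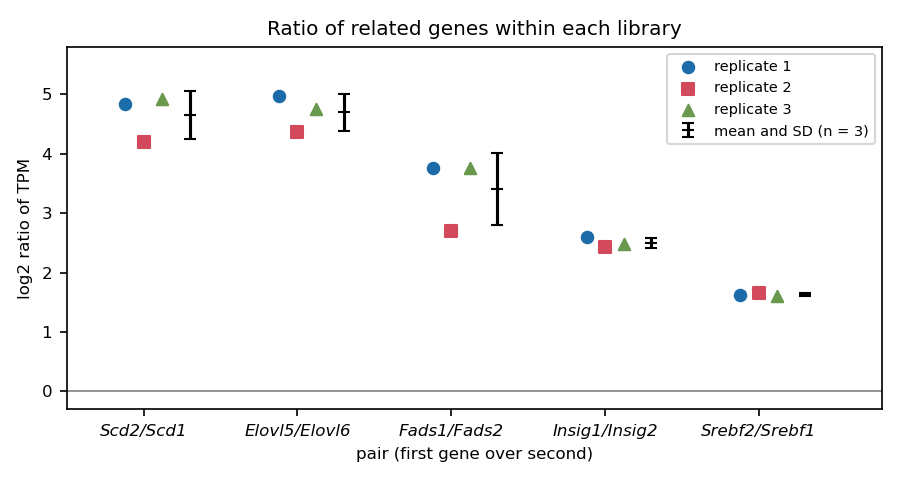
Log2 ratio of TPM of the first gene over the second in each pair, for replicates 1, 2 and 3, with the mean and SD (n = 3) to the right of the points. All points lie above 0, and replicate 2 lies lowest for Scd2/Scd1, Elovl5/Elovl6 and Fads1/Fads2.

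Between libraries, most members were highest in replicate 2. Levels were compared as log2 CPM (counts scaled to library size) with TMM scaling, which sets the bulk of genes equal between libraries. A difference was counted past 0.32 log2 units, a ratio of 5 to 4. Relative to the mean of the other libraries, 26 of 34 members were higher by more than this in replicate 2, against 6.32% of the 12413 genes past the filter on low counts. No member was lower by more than this there, against 9.64% of genes. Replicate 2 held the highest value of 31 members, against 30.9% of genes. The exceptions were Ggps1 and Ebp, highest in replicate 1, and Elovl5, highest in replicate 3.

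The same excess was seen in 7 of 8 mevalonate genes, 10 of 11 squalene to sterol genes, 4 of 6 regulators and 5 of 9 fatty acid genes. The median differences of replicate 2 from the other libraries were 0.64, 0.54, 0.39 and 0.43 log2 units in these roles, and 0.47 over all members. The median over all genes was 0.00255. The fit holds no test of 1 library against the others, since the libraries are replicates of 1 group, so these are counts beside the background and no p is given.

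Scd1 had the largest excess, at 10.8, 33.8 and 11.3 CPM in replicates 1, 2 and 3, or 3.07-fold over the other libraries. Fads2 came next at 10.5, 22.7 and 9.06 CPM, 2.33-fold, and Scd2 had 358, 754 and 447 CPM, 1.89-fold. The 3 desaturase genes thus led, although Fads1, a desaturase too, differed only 1.13-fold at 154, 162 and 134 CPM.

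Among the sterol enzymes, Mvd stood at 21.7, 30.9 and 14.0 CPM and Fdps at 34.8, 53.2 and 26.0 CPM, both 1.77-fold higher in replicate 2. Lss was 1.69-fold and Acat2 1.68-fold higher, Idi1 1.62-fold, Sqle 1.61-fold and Fdft1 1.60-fold. Cyp51, Hsd17b7 and Mvk followed at 1.56-fold, 1.53-fold and 1.51-fold. The most abundant sterol enzymes were less far apart, with Msmo1 at 118, 168 and 116 CPM (1.43-fold) and Hmgcs1 at 182, 241 and 178 CPM (1.34-fold).

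Fasn stood at 85.4, 139 and 92.2 CPM, 1.56-fold higher in replicate 2, whereas Acly and Acaca, which act before it, were 0.26 and 0.24 log2 units higher and stayed under the threshold. Of the regulators, Insig1 (1.38-fold), Srebf1 (1.32-fold), Srebf2 (1.31-fold) and Stard4 (1.30-fold) passed it. Scap at 1.10-fold and Insig2 at 1.07-fold did not. The remaining members past it, from Tm7sf2 at 1.46-fold down to Sc5d at 1.33-fold, were Tm7sf2, Nsdhl, Pmvk, Elovl6, Dhcr7 and Sc5d.

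**Figure D3:**
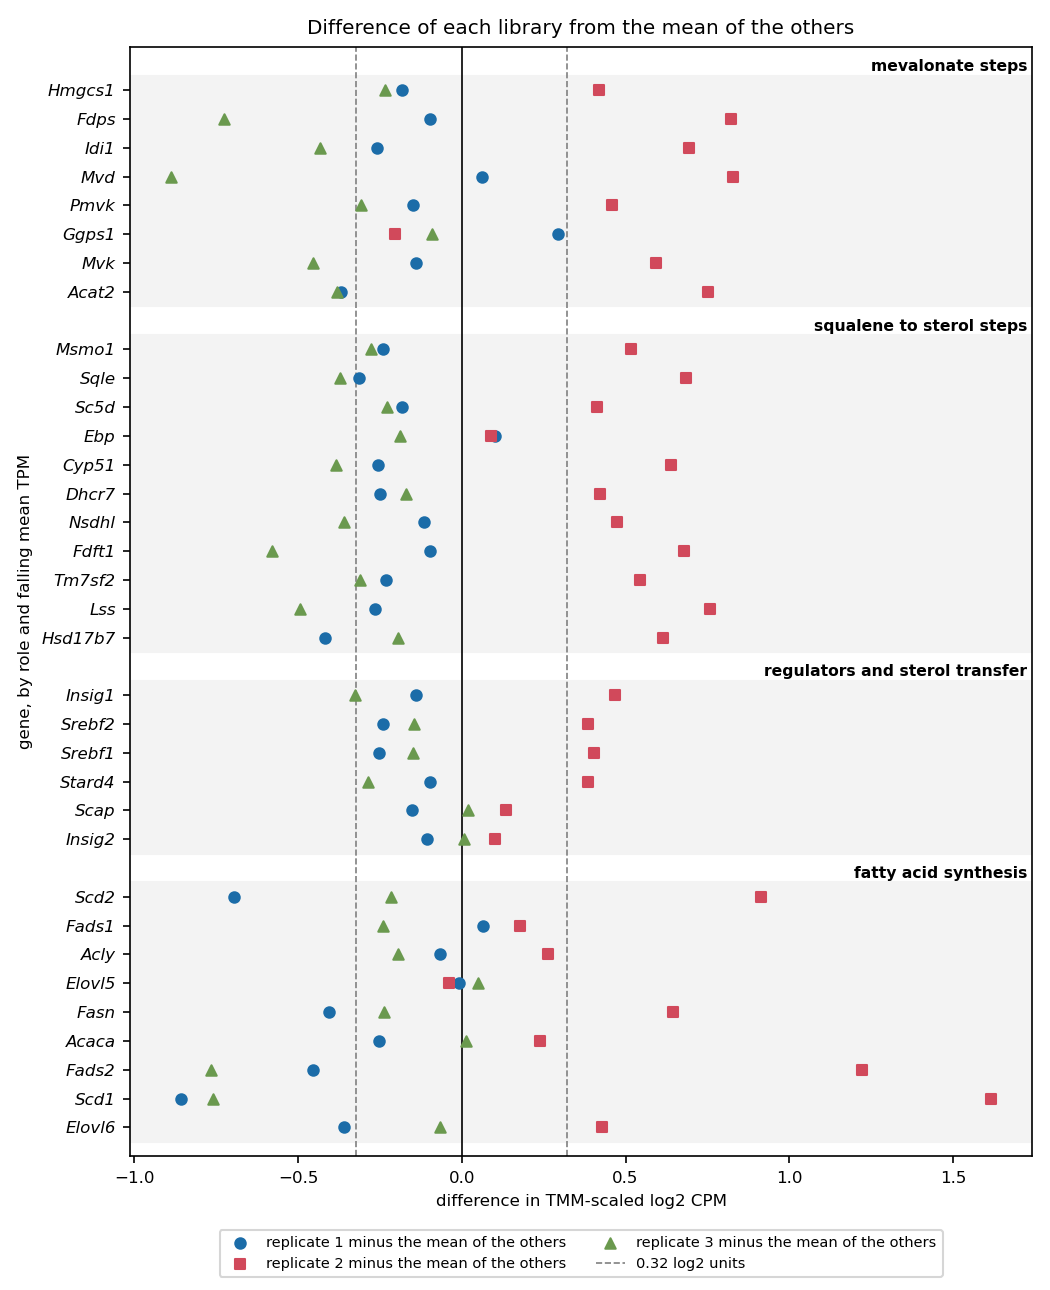
Each library minus the mean of the others in TMM-scaled log2 CPM, for each of the 34 genes by role, with dashed lines at 0.32 log2 units in either direction. The red squares of replicate 2 lie right of the line for 26 genes, with Scd1 at 1.62 the farthest, and Elovl5 lies closest to 0 over the 3 libraries.

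Replicate 3 lay lowest for many sterol genes. It was lower than the others by over 0.32 log2 units for 13 members, against 5.16% of genes, and higher for 0, against 13.0%. Replicate 1 was lower by that much for 7 members, against 12.1% of genes, and higher for 0, against 5.87%. These contrasts share libraries, so a high replicate 2 makes the other libraries low in them.

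With replicate 2 left out, replicates 1 and 3 lay close. Only Mvd, Fdps and Fdft1 were higher by over 0.32 log2 units in replicate 1 than in replicate 3, against 8.29% of 12769 genes, and 0 members were lower, against 16.7%. The median SD of log2 CPM of the members was 0.28 over the 3 libraries, against 0.12 for all genes. Without replicate 2 it was 0.088, against 0.11 for all genes. Elovl5 had the smallest SD of all members at 0.03, followed by Insig2 at 0.07 and Scap at 0.10.

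The members together took 0.225% of all counts in replicate 1 (95% exact binomial interval 0.223 to 0.227), 0.312% in replicate 2 (0.310 to 0.314) and 0.213% in replicate 3 (0.212 to 0.214). These intervals cover counting error only, and they lie apart. Of protein-coding counts the members took 0.255%, 0.372% and 0.255%, so replicates 1 and 3 were alike on that base. The protein-coding share of counts itself was 88.0%, 83.9% and 83.4%, and the summed TPM of the 7 macrophage markers was 7090, 4967 and 5411. Most of that sum was Lyz2, at 5952, 4033 and 4392 TPM. Mrc1 was lowest in replicate 1, at 107.0, 107.5 and 118.0 TPM, and the other macrophage markers were lowest in replicate 2. The adipocyte markers stood at or near 0 in every library. Whether the coding share or the cells behind any of these markers had a part in the difference was not tested.

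Neighbouring genes of the pathway were counted at the same threshold in replicate 2, which 6.32% of all genes passed as higher and 9.64% as lower. Of 7 genes of sterol and ketone metabolism past the filter, 0 were higher, and of 18 fatty acid neighbours 3 were higher and 2 lower. Those higher were Slc25a1, the mitochondrial citrate carrier, at 42.5, 52.2 and 38.7 CPM in replicates 1, 2 and 3, the acyl-CoA synthetase gene Acsl3, and Me1, the malic enzyme. Those lower were Acacb and Fads6, both under 3 CPM, as was Me1 at 1.185, 1.541 and 1.092 CPM. Of 12 genes of SREBP and ChREBP regulation, 1 was higher and 0 lower, and this was Mid1ip1, which encodes an activator of acetyl-CoA carboxylase, at 68.3, 87.4 and 59.6 CPM. These 6 genes are named after their values were seen. The SREBP proteases belong to that list. The highest genes of the other neighbour lists were Soat1, which esterifies cholesterol, at 175 TPM, and Tecr, a reductase of fatty acid elongation, at 35.9 TPM. Replicate 2 lay above the other libraries' mean for all 7 sterol and ketone neighbours and 13 of 18 fatty acid neighbours. The same held for 4 of 12 genes of SREBP and ChREBP regulation and for 6291 of all 12413 genes. The lists were compared by counts alone, and the difference between them was not tested.

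Most members were carried by a single protein-coding transcript. The leading transcript held at least 50% of the gene's TPM in all libraries for 32 of 34 members, against 79.4% of the 9023 detected protein-coding genes. The exceptions were Fasn and Acly. The leading transcript was protein coding for all 34, and the median share in protein-coding transcripts was 99.3%, against 97.5% for detected genes. It was under 90% for 6 members (Msmo1, Srebf2, Hsd17b7, Lss, Fasn and Ggps1), and for 27.5% of detected genes.

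Msmo1 had the lowest coding share. The processed transcript Msmo1-206 held 35.6%, 36.2% and 34.9% of its TPM in replicates 1, 2 and 3, although the kallisto-format table gave it only 18.7 ± 1.06%. The retained-intron transcript Srebf2-205 held 15.9 ± 1.46% in the RSEM-format table and 15.9 ± 1.49% in the kallisto-format table. Hsd17b7-204, a processed transcript, held 17.2 ± 5.23% and Lss-204, with a retained intron, 14.6 ± 4.47%. Of these 4 shares, those of Srebf2 and Hsd17b7 differed little between the tables.

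Srebf1 transcripts separate the SREBP-1 isoforms, which differ in the first exon: SREBP-1a has the longer activation domain and SREBP-1c the shorter. Srebf1-201, which starts at 60220604 with 91 coding bases in its first exon, held 83.9%, 78.5% and 75.4% of Srebf1 TPM. Srebf1-207, which starts at 60210465 with 19 coding bases there, held 2.30%, 6.19% and 5.29%. The start regions of Srebf1-201 and Srebf1-207 are those printed above. Srebf1-203, which starts farther downstream at 60207188 with 351 coding bases there, held more than Srebf1-207, at 5.62%, 10.02% and 10.15%. It was not assigned to an isoform. The kallisto-format table gave 59.7 ± 4.19% to Srebf1-201, 11.5 ± 4.51% to Srebf1-207 and 3.71 ± 1.01% to Srebf1-203. Srebf1-201 thus led in both tables, while the shares moved and the order of Srebf1-207 and Srebf1-203 changed. The kallisto-format table also placed 18.0% on the processed transcript Srebf1-204. The naming of the transcripts as isoforms rests on the length of the coding part of the first exon.

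Fasn and Acly divided over coding transcripts with different starts. Fasn-205 and Fasn-201 held 44.7 ± 7.60% and 39.2 ± 8.30%, and the kallisto-format table gave 75.0% and 23.6%. For Acly the RSEM-format table put Acly-207 ahead at 47.4 ± 2.89% of TPM, with Acly-203 at 45.2 ± 2.70%, while the kallisto-format table put Acly-203 ahead at 41.0% with Acly-207 at 24.1%. Acly was the only member with a different leading transcript, against 9.07% of detected genes. Sc5d-202 and Sc5d-201 held 61.3 ± 1.37% and 38.0 ± 1.89%, a ratio that varied little between libraries.

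**Figure D4:**
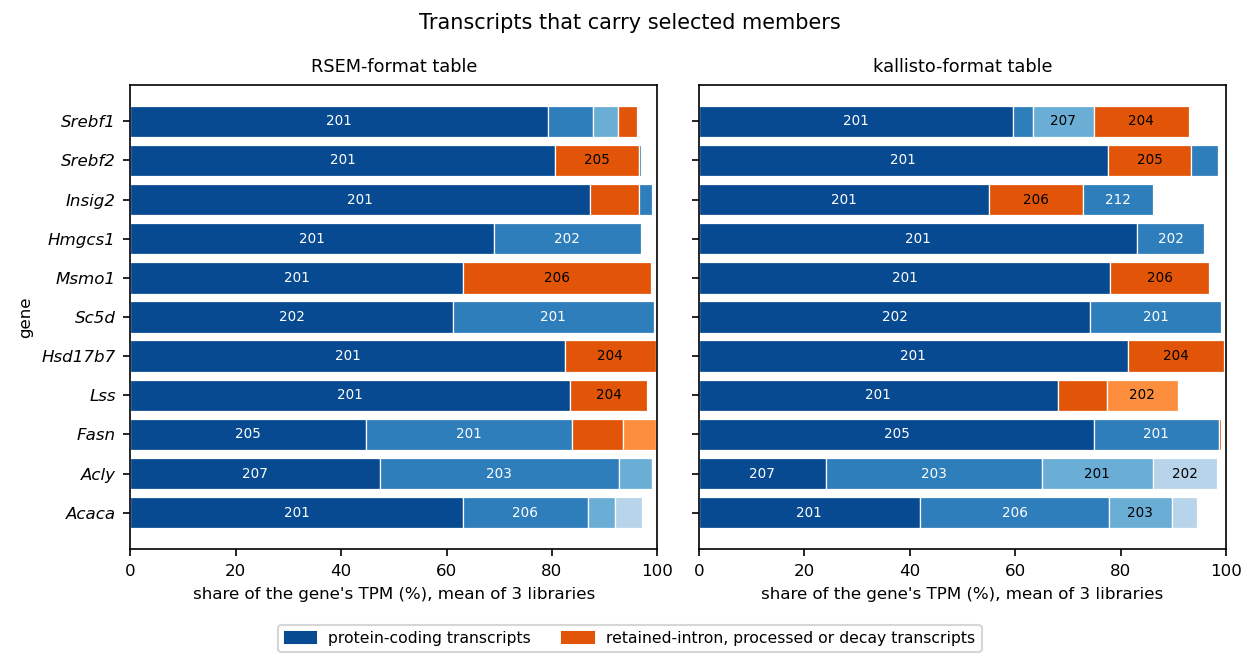
Share of TPM (mean of 3 libraries) held by each transcript of 11 members in the RSEM-format table and the kallisto-format table, leaving out transcripts under 5% in both, with numbers naming the transcript. Blue shades are protein-coding transcripts and orange shades are others, the largest of which is Msmo1-206 at 35.6% in the RSEM-format table.

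Gene levels depended little on the quantifier. After scaling both tables to the same protein-coding total, the median absolute log2 ratio was 0.062 for members and 0.067 for detected protein-coding genes. Past 0.32 log2 units, 2 members were higher in the kallisto-format table, against 6.58% of detected protein-coding genes, and 0 were lower, against 1.65%. These were Insig2 and Acaca, each 1.38-fold higher. For Insig2 the deposited TPM also lay outside the deposited credibility interval of its posterior mean in all 3 libraries, for example 4.26 TPM in replicate 1 against an interval from 5.39 to 10.2.

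Some members share sequence or exons with other genes. Of the leading transcripts, 21 had no word of 50 bases in common with transcripts of another gene, and 5 had more than 10% of such words in common. These were Fdps with 82.0%, Acaca with 55.4%, Acat2 with 45.9%, Idi1 with 21.3% and Fdft1 with 14.1%, and the gene sharing most with each stood below 1 TPM. Reads of these 5 could be split, so their levels are less certain. Scd1 shared 4.66% of words and Scd2 4.01%, so most of their sequence told them apart. Exons of Fdft1 overlapped those of Ctsb, a lysosomal protease gene at 2434 TPM on the opposite strand, over 18.3% of the Fdft1 exon bases, and whether the counting used strand is not given in the sources used here. Exons of Tm7sf2 overlapped those of Vps51, a gene at 9.15 TPM on the same strand, over 12.1% of the Tm7sf2 exon bases.

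Motif matches were counted in 300-base windows, 250 bases before to 50 after each RefSeq start. The table held 35 windows for 27 of the 34 members and 32851 windows in all. No window was available for Fdps, Fdft1, Sqle, Stard4, Scd1, Scd2 and Fads1, so the motif counts do not cover them. The NF-Y motif was found in 65.7% of member windows, in 37.4% of all windows and in 37.3% of the windows of detected protein-coding genes. The E-box was found in 7 of 35 member windows, or 20.0%, against 7.15% of all and 10.7% of detected ones. Overlapping windows of Scap hold the same E-box. Counted by gene, 6 of 27 members had an E-box, against 8.09% of 27025 genes. The SP1 motif was found in 71.4% of member windows, 35.7% of all and 64.0% of detected ones. For SP1 the member share thus lay near that of detected genes.

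The SREBP motif was found in 1 of 35 member windows, or 2.86%, against 1.24% of all windows. By gene, 22 of 27 members had an NF-Y match in at least 1 window, against 41.1% of 27025 genes. Of the 20 members in the table that were higher by over 0.32 log2 units in replicate 2, 17 had one, and of the other 7 members 5 had one. For the SP1 motif these counts were 17 of 20 and 4 of 7, with Fasn, Pmvk and Elovl6 higher but without a match. NF-Y matches began at a median of 59.5 bases before the start, and 44 of 48 began before it. The factor binds CCAAT boxes near starts and is known to act together with SREBP. A match is a description of letters and not a site, and a window without one says only that these letters are not there.

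**Figure D5:**
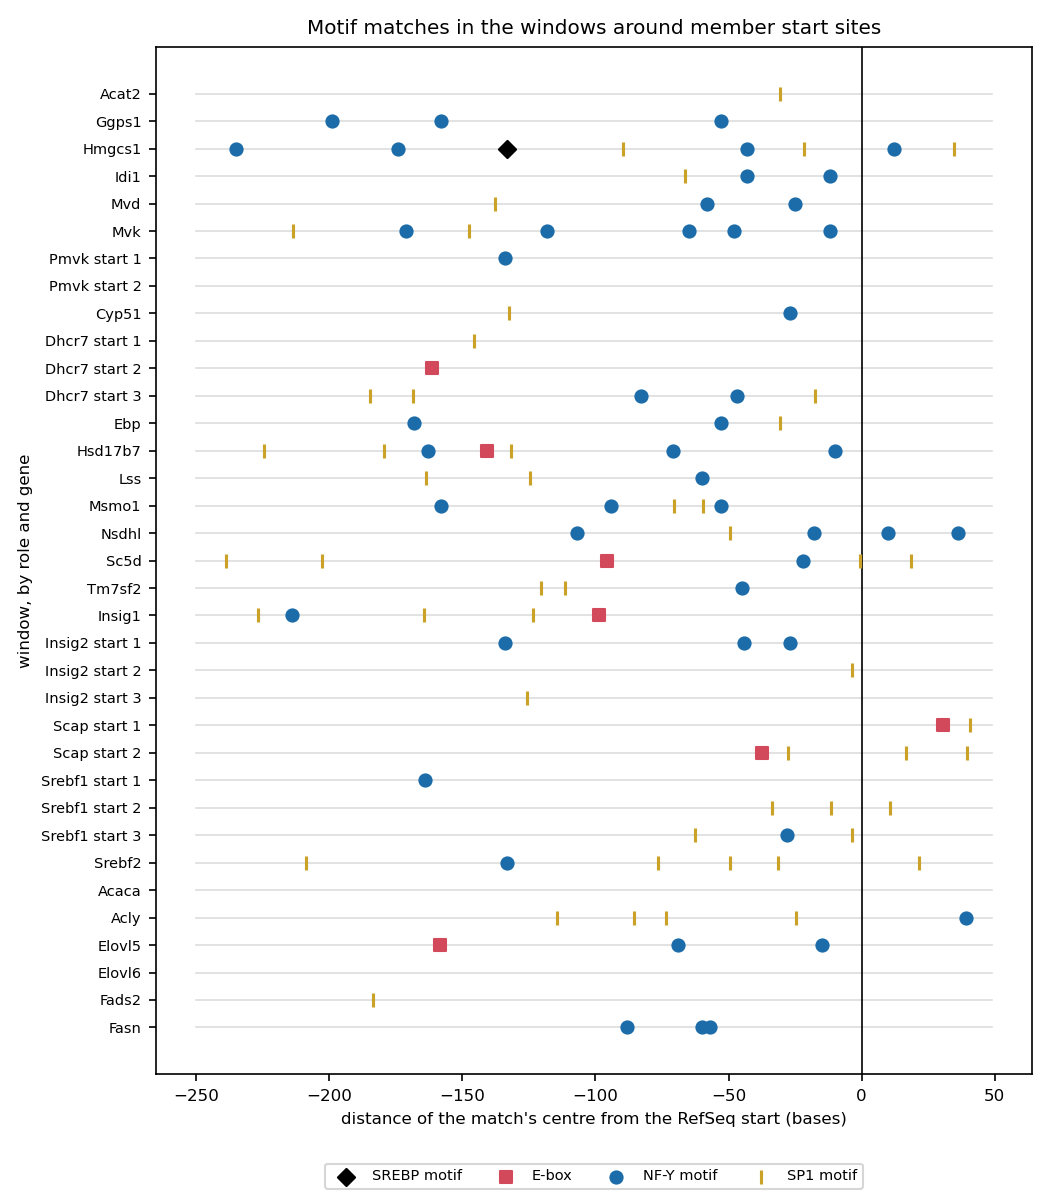
Centres of motif matches by distance in bases from the RefSeq start in the 35 windows of 27 members, by role and gene. Blue NF-Y matches lie mostly before the start, and the single black SREBP motif lies in the Hmgcs1 window.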

How the data were processed

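Per the file headers, each library has a gene table and a transcript table with RSEM's columns and a transcript table with kallisto's columns. Per the labels' notes, they refer to mm10 and GENCODE M21. Versions, aligner and strand settings are not given in the sources used here. The authors deposited expected counts (estimated reads), TPM (scaled to a fixed sum per library) and credibility bounds of TPM.

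The 34 members and all gene lists were chosen with earlier results of these data known. Counts were rounded. The 26345 rows that name no gene (0.0731% to 0.406% of counts) were left out. edgeR 4.0.16 (R 4.3.3) gave TMM factors of 1.04, 0.993 and 0.972, its filter on low counts left 12413 genes, and log2 CPM used a prior count of 2. The intercept-only fit gave a common biological coefficient of variation of 0.145. The calculation was tested on simulated data. Library pairs differed beyond sampling noise (chi-square per degree of freedom 40.6 to 63.8). A count of 0 allows up to 3 counts.

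The text gives every library's level of the 3 highest and the lowest member of each role, of the pairs, and of members past 0.32 log2 units in a library, and of other lists the highest gene and genes at 0, some of which are not reported here. Other genes of those lists, past the threshold in replicate 2 or given as additional observations, were named after their values were seen. The alternatives were DESeq2 1.42.0 size factors, log2(TPM + 1), other filters, priors, folds and thresholds, the posterior mean TPM, the kallisto-format TPM, and leaving out each replicate. Python 3.11.15 with scipy 1.17.1 did the rest.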

Additional observations from a re-analysis of the deposited data

How the results depend on the processing

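No paired analysis was possible because there is 1 group. With 3 libraries the spread is poorly known, and no difference between libraries could be tested. Low members rest on few counts, down to 139 for Elovl6. Of the alternatives to the main counts, levels and ratios, 103 kept the value within its limits, 28 moved it and 0 reversed it, and the 155 for single members all moved their difference by less than 1 SD of that member's log2 CPM between libraries. That limit is not the threshold: of the 26 members higher in replicate 2, 10 fell below 0.32 log2 units on the log2(TPM + 1) scale (Hmgcs1, Pmvk, Nsdhl, Hsd17b7, Sc5d, Dhcr7, Srebf1, Srebf2, Insig1 and Stard4), 15 stayed past it and Elovl6 had no value there. Members detected came to 20 at 5 TPM, and to 28 at 1 TPM with the kallisto-format TPM before any rescaling. The regulators' median was 8.42 TPM with kallisto-format values, and the fatty acid median was 11.2 TPM over detected members alone. With a pseudocount of 1 the log2 ratios were 4.05 (Scd2/Scd1), 3.34 (Elovl5/Elovl6), 2.26 (Insig1/Insig2) and 1.51 (Srebf2/Srebf1). With kallisto-format values Insig1/Insig2 was 2.00 and Srebf2/Srebf1 1.32, and with the posterior mean TPM Elovl5/Elovl6 was 4.39, Insig1/Insig2 1.91 and Srebf2/Srebf1 1.51. The members' median SD ranged from 0.0878 to 0.377 when each replicate was left out, the lowest without replicate 2. On the log2(TPM + 1) scale the median of all genes moved by 0.20 in replicate 1, -0.10 in replicate 2 and -0.10 in replicate 3. On that scale 16 members were past 0.32 log2 units higher and 1 lower in replicate 2, 1 higher and 2 lower in replicate 1, and 21 lower in replicate 3, and the members' median in replicate 2 lay 0.42 above that of all genes. At 1.5-fold, 14 members were higher in replicate 2, 2 lower in replicate 1 and 4 lower in replicate 3. Shares of all genes are not given on the log2(TPM + 1) scale, at 1.5-fold, or without replicate 1 or replicate 3. Counts of members under those alternatives thus stand without a background. Leaving out each other replicate gave 1 to 3 members higher and 0 to 26 lower in replicate 1, 0 to 1 lower in replicate 2 and 3 to 26 lower in replicate 3; the count of 26 is against replicate 2 alone in each case.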

Other observations

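Idi2, a muscle isomerase, the elongase gene Elovl3 and the desaturase gene Scd3 were listed at 0 TPM in all 3 libraries. Soat2, which esterifies cholesterol in liver and gut, stood at 0 to 0.02 TPM, against 174.8 ± 4.43 TPM (SD, n = 3) for Soat1. Mlxipl, which encodes the glucose-sensing factor ChREBP, stood at 0, 0.03 and 0 TPM, and Thrsp, a lipogenic gene of liver and fat, at 0, 0 and 0.01 TPM. Acacb, the mitochondrial acetyl-CoA carboxylase, stood at 0.10 ± 0.046 TPM, against 5.64 ± 0.39 TPM for Acaca. These genes were named after their values were seen, except those at 0.

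Por, which feeds electrons to Cyp51 and Sqle, stood at 114.1 ± 6.76 TPM. The cytochrome b5 gene Cyb5a stood at 59.6 ± 13.9 TPM and the cytochrome b5 reductase gene Cyb5r3 at 28.3 ± 1.92 TPM. They were chosen after their values were seen.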
